A study of Homo sapiens with 33 samples.

Results

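Samul-tang and Sagunja-tang are herbal formulas of Korean and Chinese traditional medicine with no main herb in common: Samul-tang is built on rehmannia, angelica, cnidium and peony, and Sagunja-tang on ginseng, atractylodes, poria and licorice. HT29 cells, a human colorectal adenocarcinoma line, were treated for 24 h with a 70% ethanol extract of either formula, and messenger RNA of whole cultures was sequenced. The 2 libraries of Samul-tang at 500 µg/mL were compared with the 2 libraries of Sagunja-tang at 500 µg/mL. These 4 libraries were taken by their labels from 33 in the series. The question is which genes respond differently to equal masses of the 2 extracts, since a comparison with vehicle does not test that difference.

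The other libraries used here were both formulas at 100 and 20 µg/mL (2 each), vehicle (3, with 0.1% DMSO in the sample labels and 2% in the series text, which was not settled), and Palmul-tang at 500 µg/mL (3), a formula that combines the herbs of both. The fit also held Palmul-tang at 100 and 20 µg/mL and Sibjeondaebo-tang, which adds further herbs to Palmul-tang, at 500, 100 and 20 µg/mL (3 each). They entered the estimate of the spread and no comparison. All groups were grown without any further agent in the labels. All libraries carry the same batch label, but the sample names of vehicle, of Palmul-tang with Sibjeondaebo-tang, and of Sagunja-tang with Samul-tang begin with different codes. What these codes stand for is not given. For levels set beside vehicle or Palmul-tang, sample set and treatment therefore cannot be told apart. Sagunja-tang and Samul-tang had replicates 2 and 3 only, and no label says that replicates were separate cultures. The p-values therefore measure the spread between replicate libraries over all 13 groups of the fit, which may be technical. In whole cultures, fewer cells of a kind and less RNA per cell cannot be told apart.

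The gene list with the most calls between the formulas was that of targets of NRF2, a transcription factor with an antioxidant and detoxification program. It held 19 of the 953 genes called different below. Of the 57 genes called higher with Samul-tang both with and without a Sagunja-tang library described below, it held 17. The list was chosen with earlier results of these data known. In resting cells KEAP1 marks NRF2 for degradation. Electrophilic plant compounds and oxidants modify KEAP1, NRF2 then accumulates and binds antioxidant response elements near its target genes. These targets make glutathione and NADPH, reduce quinones and reactive aldehydes, conjugate foreign compounds and export the products. In colon epithelium, which is exposed to dietary compounds, the same genes also shape the response to drugs.

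Promoter windows of some of these genes are shown because they carry the core letters of that element. Each window runs from 250 bases before to 50 bases after a RefSeq start site (GRCh38.p14), 5′ to 3′ on the strand of the gene, and capitals mark matches to TGACNNNGC on either strand. Of the 19 NRF2 targets called below, 12 had a window, and 5 of them (41.7%) held a match: TXNRD1, GCLM, PGD, ME1 and EPHX1. On the whole NRF2 list, called or not, 8 of 20 genes with a window (40%) held one, so that called members do not stand apart in this. Among all 27305 genes with a window 16.1% held one, and among all 35116 windows 13.3%. A match is a description of the letters and was not tested for binding. In the window printed, TXNRD1 has matches that begin 99 and 8 bases before its start site. A further TXNRD1 window, not printed, has 1 that begins 102 bases before another start site. GCLM has 1 that begins 34 bases before its start site, and ME1 1 that begins 137 bases before and 1 at position 12 after it. The window of AKR1C2, one of the NRF2 targets with the smallest adjusted p-values below, holds none.
TXNRD1, chr12:104215529-104215828, plus strand: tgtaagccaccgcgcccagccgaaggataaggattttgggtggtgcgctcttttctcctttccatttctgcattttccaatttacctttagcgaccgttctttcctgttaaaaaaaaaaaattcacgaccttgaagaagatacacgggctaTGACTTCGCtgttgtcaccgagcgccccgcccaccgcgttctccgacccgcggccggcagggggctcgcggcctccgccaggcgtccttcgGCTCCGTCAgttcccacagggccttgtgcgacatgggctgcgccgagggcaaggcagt
GCLM, chr1:93909381-93909680, minus strand: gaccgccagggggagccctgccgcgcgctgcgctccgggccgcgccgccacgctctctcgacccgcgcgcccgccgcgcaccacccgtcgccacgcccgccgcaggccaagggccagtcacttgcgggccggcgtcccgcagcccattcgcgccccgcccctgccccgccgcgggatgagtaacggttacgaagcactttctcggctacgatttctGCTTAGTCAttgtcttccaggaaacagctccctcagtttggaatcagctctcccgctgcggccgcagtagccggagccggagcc
ME1, chr6:83431002-83431301, minus strand: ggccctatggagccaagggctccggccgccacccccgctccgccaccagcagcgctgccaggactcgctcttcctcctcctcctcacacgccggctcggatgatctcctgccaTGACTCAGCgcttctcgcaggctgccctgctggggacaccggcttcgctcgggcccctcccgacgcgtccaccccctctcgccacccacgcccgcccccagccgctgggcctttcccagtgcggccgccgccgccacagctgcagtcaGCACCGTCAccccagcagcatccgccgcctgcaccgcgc
AKR1C2, chr10:5003808-5004107, minus strand: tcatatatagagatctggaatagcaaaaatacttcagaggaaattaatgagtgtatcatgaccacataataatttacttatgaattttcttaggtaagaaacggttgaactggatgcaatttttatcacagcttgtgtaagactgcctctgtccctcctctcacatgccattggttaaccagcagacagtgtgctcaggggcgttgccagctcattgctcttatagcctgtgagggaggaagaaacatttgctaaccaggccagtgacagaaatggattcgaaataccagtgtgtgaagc

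Before the results, 1 library needs a description. Replicate 2 of high-dose Sagunja-tang stood apart from replicate 3 along gene length: long genes read lower and short genes higher in it. The SD over genes of the log2 difference between its replicates was 0.250, against 0.097 to 0.124 in the other 5 groups of these formulas. That difference had a Spearman correlation of -0.462 with the exon length of the gene over 10958 genes. In the other 5 groups this correlation ran from -0.178 in medium-dose Samul-tang to 0.254 in medium-dose Sagunja-tang. In the 8 bins of genes by length, the median log2 difference of Samul-tang minus Sagunja-tang ran from -0.13 in the shortest to 0.12 in the longest genes. Against replicate 2 alone it ran from -0.21 to 0.20, and against replicate 3 alone from -0.04 to 0.03. Over genes, the Spearman correlation of the difference with exon length was 0.503 against replicate 2 and 0.204 against replicate 3. Some trend along length thus remained without replicate 2. Results are therefore given with and without replicate 2 of high-dose Sagunja-tang. Total counts, in units of 1e6, were 38.6 and 47.0 in the Samul-tang and 30.9 and 37.8 in the Sagunja-tang libraries. Of 12 colon epithelium markers 11 stood at 1 CPM (counts scaled to a library of 1e6) or more in each of the 4 libraries, and fibroblast markers summed to 3.04 to 3.72 CPM. Leukocyte markers summed to 1458 to 1834 CPM, with 4 of 10 at 1 CPM or more and 3 or 4 at 0. Endothelial markers summed to 41.8 to 52.6 CPM, with 3 or 4 of 8 at 0. Few members carry these sums, and no cell type was called from them.

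**Figure D1:**
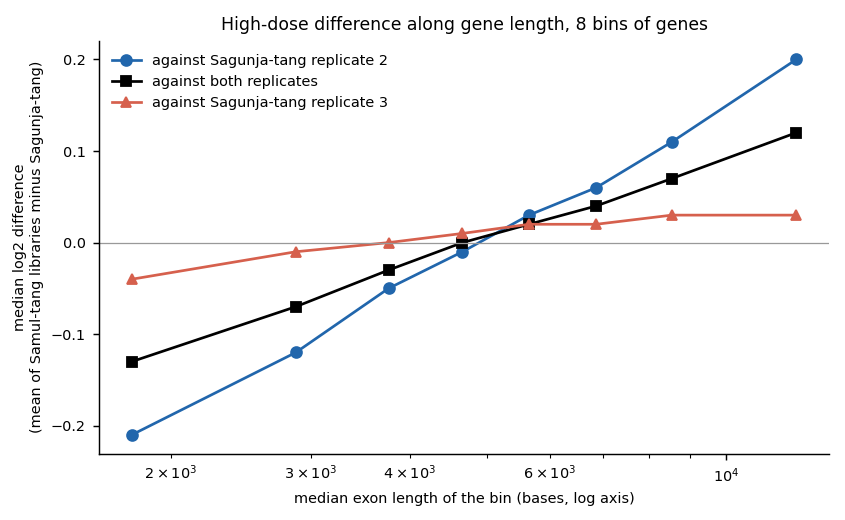
Median log2 difference of high-dose Samul-tang minus high-dose Sagunja-tang (y axis) in 8 bins of genes by exon length (x axis, bases, log axis), against both Sagunja-tang replicates and against each. The line against replicate 2 climbs from -0.21 to 0.20, and the line against replicate 3 stays between -0.04 and 0.03.

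In the fit over all 33 libraries (edgeR, quasi-likelihood test, Benjamini-Hochberg adjusted p under 0.05, "called" from here on), 953 of 17432 genes (5.47%) differed between the formulas at the high dose. Of these 618 (3.55%) were higher and 335 (1.92%) lower with Samul-tang, so that 64.8% of calls were higher. With the trend along gene length removed 511 genes (2.93%) were called, 240 (1.38%) higher and 271 (1.55%) lower, which puts 47% of calls on the higher side. Without replicate 2 of high-dose Sagunja-tang 71 genes were called (0.407%), 62 (0.356%) higher and 9 (0.0516%) lower. Genes called higher had a median exon length of 8294 bases, those called lower 2801 and all tested genes 4130. Without replicate 3 of high-dose Sagunja-tang 4085 genes were called, and without replicate 2 or 3 of high-dose Samul-tang 138 or 167. The fit takes its spread from all groups, and the other 5 groups of these formulas had closer replicates than high-dose Sagunja-tang. In a fit of the 12 libraries of both formulas 44 genes (0.252%) were called, and in a fit of the 4 high-dose libraries alone 2 (0.0115%), SLC38A4 and AKR1C2, with 1148 genes at an unadjusted p under 0.05.

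The description below rests on 63 genes called in the same direction with and without replicate 2 of high-dose Sagunja-tang, 57 higher and 6 lower with Samul-tang. Of the 57 higher genes 17 were on the list of NRF2 targets. Their median exon length was 5044 bases for the higher and 2974 for the lower ones. Of the 63, 58 were also called the same way with the length trend removed, 34 in the fit of 12 libraries, and 63 with DESeq2, which called 6.33% of all genes.

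NRF2 targets were the list with the most calls. All 30 members were tested, and 19 (63.3%) were called higher with Samul-tang and 0 lower, against 3.55% of all genes called higher. The median log2 difference was 0.37, against -0.002 over all genes. Without replicate 2 of high-dose Sagunja-tang 19 were called higher and the median was 0.35, with the length trend removed 20 and 0.34. In the fit of 12 libraries 15 were called higher and 0 lower, against 0.207% and 0.0459% of all genes. Of the 30 members, 24 had both Samul-tang libraries above both Sagunja-tang libraries, as did 21.7% of all tested genes, while 19.7% had both below (41.4% without overlap in all). The list was chosen with earlier results of these data known.

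**Figure D2:**
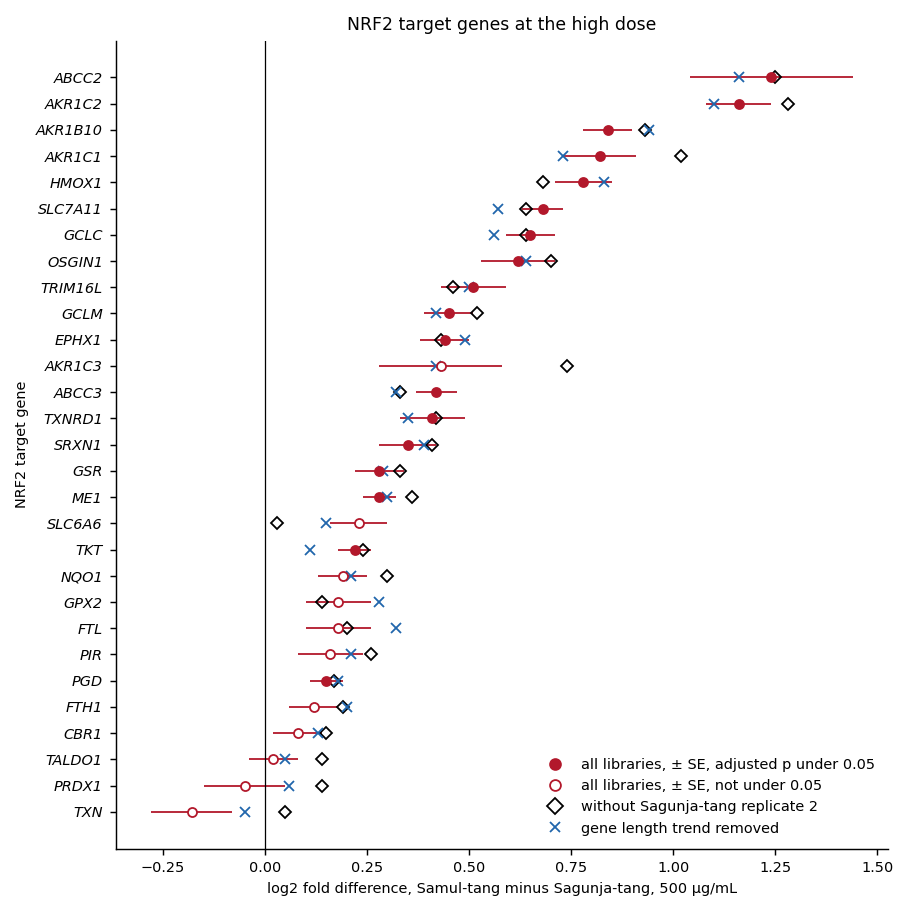
Log2 fold difference of Samul-tang minus Sagunja-tang at 500 µg/mL (x axis) for 29 of the 30 NRF2 target genes (y axis), with all libraries (circles ± SE, filled where called), without Sagunja-tang replicate 2 (diamonds) and with the gene length trend removed (crosses). Filled circles run from 0.15 at PGD to 1.24 at ABCC2, and PRDX1 and TXN lie left of 0 with all libraries.

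Aldo-keto reductases, which reduce aldehydes, ketones and steroids with NADPH, led the list. AKR1C2 (ENSG00000151632, chromosome 10, 4987400 to 5018031, hg38) stood at 49.9 and 51.5 CPM with Samul-tang and 24.7 and 20.9 with Sagunja-tang, and at 12.7, 10.7 and 11.3 in vehicle. The formulas did not overlap, and both lay above every vehicle library. The difference was 1.16 ± 0.08 on the log2 scale (SE, n = 2 and 2, edgeR adjusted p = 4.8e-10), or 2.23-fold. AKR1B10 (ENSG00000198074, chromosome 7, 134527592 to 134541408), which clears retinal and lipid aldehydes, read 335 and 342 CPM with Samul-tang, 200 and 177 with Sagunja-tang and 105, 98.3 and 92.3 in vehicle. Its difference was 0.84 ± 0.06 (edgeR adjusted p = 4.8e-10), or 1.79-fold, with the same order of groups. AKR1C1, a neighbour of AKR1C2 on chromosome 10, read 46.3 and 45.4 CPM against 29.3 and 22.7, a difference of 0.82 ± 0.09. The AKR1C genes are near-identical, so that counts could be split between them in an uncertain way. AKR1C3 read 137 and 125 CPM against 116 and 78.4 and was not called (0.43 ± 0.15, edgeR adjusted p = 0.0767). Without replicate 2 of high-dose Sagunja-tang its difference was 0.74 (edgeR adjusted p = 0.0252). Among the other 6 family members tested, AKR7A3, an aflatoxin aldehyde reductase gene, was called lower (-0.21 ± 0.05), a call lost without that library (edgeR adjusted p = 0.495). Family calls with all libraries were 3 higher and 1 lower of 10, against 3.55% and 1.92% of all genes.

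Genes for making glutathione, the main thiol of the cell, were higher with Samul-tang at both entry points, cystine uptake and the first synthetic step. SLC7A11 (ENSG00000151012, chromosome 4, 138164097 to 138242349), which exchanges glutamate for cystine, read 283 and 283 CPM with Samul-tang, 172 and 182 with Sagunja-tang and 152, 149 and 132 in vehicle. The difference was 0.68 ± 0.05 (edgeR adjusted p = 9.81e-10). GCLC, the catalytic subunit of glutamate-cysteine ligase, read 168 and 174 CPM against 108 and 110, and 102, 106 and 89.6 in vehicle. Its Sagunja-tang libraries lay just above the highest vehicle library, while both Samul-tang libraries lay far above (0.65 ± 0.06). GCLM, the modifier subunit whose promoter is printed above, read 128 and 125 CPM against 97.1 and 87.7, and 65.2, 67.2 and 58.8 in vehicle (0.45 ± 0.06). For GCLM both formulas stood well clear of all vehicle libraries. GSR, which reduces oxidised glutathione, differed by 0.28 ± 0.06. In the wider list of glutathione and cystine genes 4 of 21 were called higher and 1 lower (against 3.55% and 1.92% of all genes), and the 4 were these.

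Among the thioredoxin and quinone genes the difference was smaller. TXNRD1, thioredoxin reductase, read 624 and 567 CPM with Samul-tang against 451 and 443 (0.41 ± 0.08), a call lost without replicate 2 of high-dose Sagunja-tang (0.42, edgeR adjusted p = 0.0763). SRXN1, sulfiredoxin, differed by 0.35 ± 0.07 and was called either way. NQO1, the quinone reductase most used as a marker of NRF2 activity, read 809 and 844 CPM with Samul-tang, 782 and 671 with Sagunja-tang and 499, 468 and 441 in vehicle. Both formulas were thus above vehicle, and the libraries of the 2 formulas did not overlap. The difference between them, 0.19 ± 0.06, was not called (edgeR adjusted p = 0.0526), and was 0.30 without that library (edgeR adjusted p = 0.0135). TXN and PRDX1, thioredoxin and a peroxiredoxin, were not called (-0.18 ± 0.10 and -0.05 ± 0.10), and both differences were above 0 without it (0.05 and 0.14).

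NADPH feeds these reductases. Of 13 genes of NADPH supply, 4 were called, all higher with Samul-tang (against 3.55% of all genes called higher). Among them TKT (transketolase), ME1 (malic enzyme) and PGD (6-phosphogluconate dehydrogenase) differed by 0.22 ± 0.04, 0.28 ± 0.04 and 0.15 ± 0.04. Without replicate 2 of high-dose Sagunja-tang PGD kept its size but was no longer called (0.17, edgeR adjusted p = 0.1), and with the length trend removed TKT was not (0.11, edgeR adjusted p = 0.154).

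Genes for conjugation and export of foreign compounds were called higher in 10 of 19 tested members and lower in 0 (against 3.55% of all genes called higher), and in 9 without replicate 2 of high-dose Sagunja-tang (against 0.356%). The list median was 0.22 with and 0.19 without that library. ABCC2, an apical pump for glutathione and glucuronide conjugates, read 4.26 and 4.49 CPM with Samul-tang, 1.87 and 1.84 with Sagunja-tang and 1.18, 1.75 and 1.1 in vehicle. Its difference, 1.24 ± 0.20 or 2.36-fold, was the widest of the list at a low level of counts. ABCC3, the basolateral counterpart, read 693 and 715 CPM against 491 and 562 (0.42 ± 0.05), and ABCG2, another apical exporter, 137 and 138 against 112 and 113 (0.29 ± 0.05). UGDH, which makes the UDP-glucuronic acid that glucuronidation uses, differed by 0.41 ± 0.06. EPHX1, microsomal epoxide hydrolase, read 170 and 181 CPM with Samul-tang against 128 and 130, while vehicle read 121, 126 and 136. Sagunja-tang thus lay within the vehicle range for EPHX1, and Samul-tang above it (0.44 ± 0.06). UGT1A6, UGT1A1 and UGT1A10, glucuronosyltransferases called at 0.38 ± 0.07, 0.34 ± 0.07 and 0.22 ± 0.04, share exons, so that their counts are not separate measurements. ABCC1 was the member called with all libraries (0.25 ± 0.06) and not without that library (edgeR adjusted p = 0.5).

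HMOX1 (ENSG00000100292, chromosome 22, 35380361 to 35394214), the heme oxygenase that turns heme into biliverdin, carbon monoxide and iron, read 25.9 and 26.5 CPM with Samul-tang, 14 and 16.3 with Sagunja-tang and 10.8, 11.6 and 11.3 in vehicle. The groups were ordered vehicle, Sagunja-tang, Samul-tang without overlap, and the formulas differed by 0.78 ± 0.07 (edgeR adjusted p = 6.11e-08). FECH, which inserts iron into protoporphyrin to form heme, and STEAP3, an endosomal iron reductase, differed by 0.41 ± 0.06 and 0.43 ± 0.06. These were the 3 calls among 13 genes of iron and heme handling, also without replicate 2 of high-dose Sagunja-tang. Of all genes, 3.55% were called higher with all libraries. The ferritin genes FTL and FTH1 were not called (0.18 ± 0.08 and 0.12 ± 0.06). OSGIN1, an oxidative stress-induced gene, differed by 0.62 ± 0.09 with Sagunja-tang at 17.4 and 15.5 CPM beside 16.5, 15.9 and 16.1 in vehicle. TRIM16L, which has a close paralog in TRIM16, differed by 0.51 ± 0.08. Of the remaining list members GPX2, PIR, CBR1, TALDO1 and SLC6A6 were not called, with differences from 0.02 to 0.23.

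**Figure D3:**
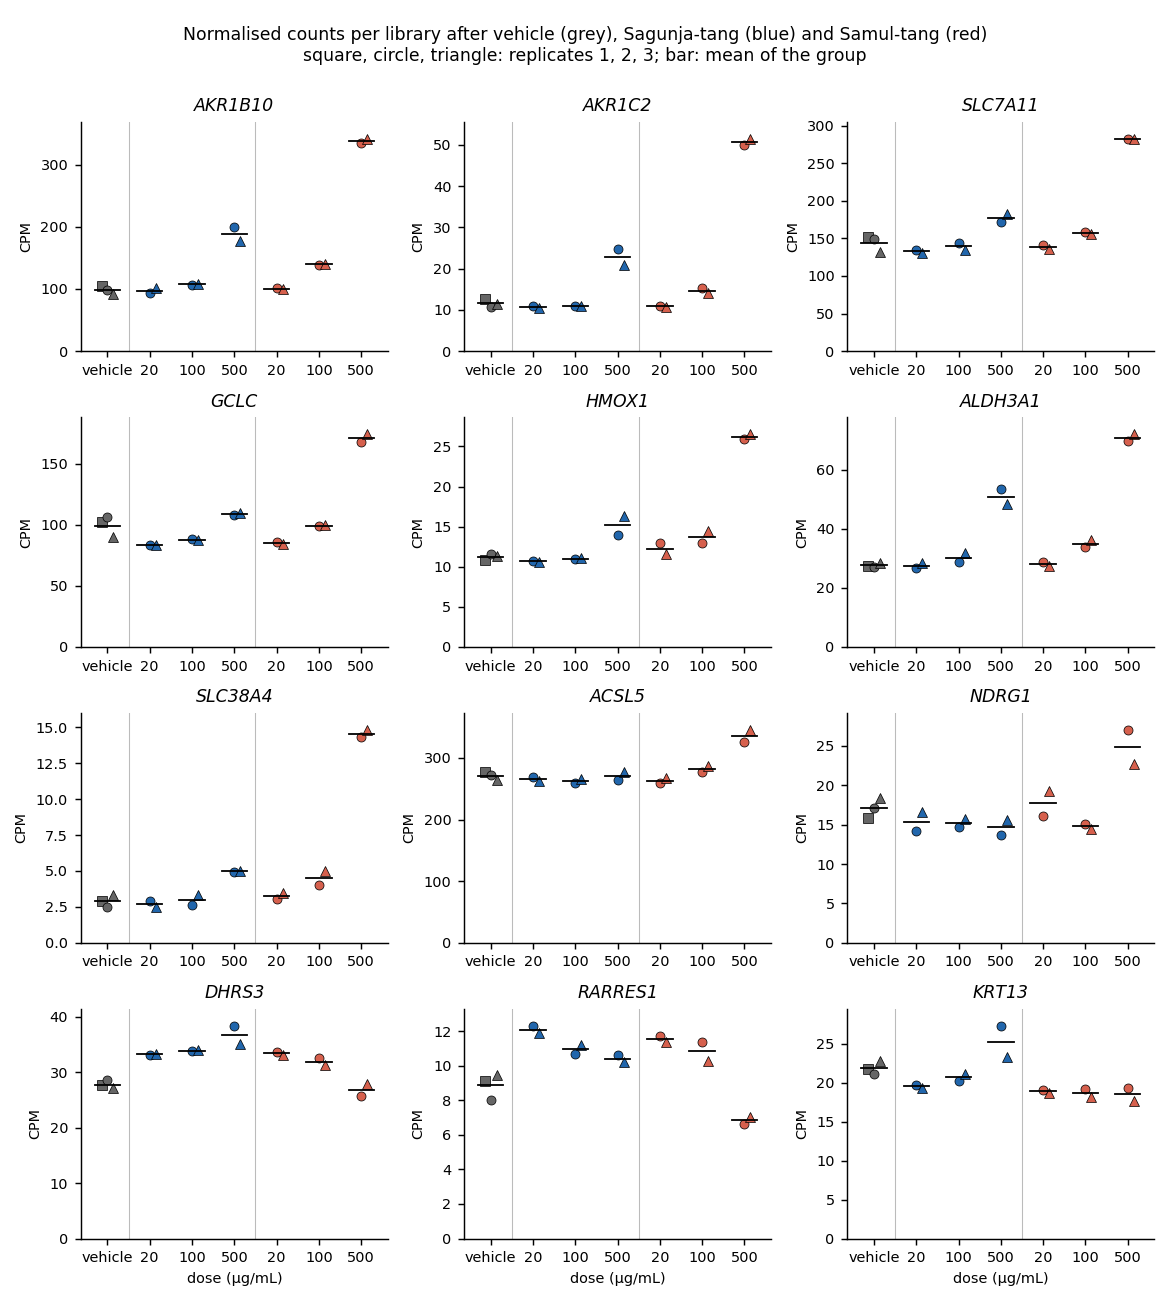
Normalised counts, CPM (y axes, from 0), of 12 genes in each library after vehicle, Sagunja-tang and Samul-tang at 20, 100 and 500 µg/mL (x axes), with 1 point per library and a bar at the mean of the group. For AKR1B10 the Samul-tang libraries read 335 and 342 at 500 µg/mL and 139 and 140 at 100 µg/mL, while Sagunja-tang read 200 and 177, and 107 and 108.

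The genes of NRF2 and KEAP1 were not called, where 5.47% of all genes were. NFE2L2, the gene of NRF2, read 110 and 121 CPM with Samul-tang and 118 and 122 with Sagunja-tang (-0.06 ± 0.06, edgeR adjusted p = 0.604), and KEAP1 differed by 0.05 ± 0.07 (edgeR adjusted p = 0.746). SQSTM1, which encodes the KEAP1-binding autophagy receptor p62, was higher at 525 and 516 against 436 and 390 CPM (0.33 ± 0.07). It was called without replicate 2 of high-dose Sagunja-tang (0.42, edgeR adjusted p = 0.0145), but not with the length trend removed (0.25, edgeR adjusted p = 0.0643) or without either Samul-tang library (edgeR adjusted p = 0.0734 without replicate 2 and 0.052 without replicate 3). Of 9 genes of this list 1 was called higher and 1 lower, the latter MAFF (-0.24 ± 0.06), whose call was lost without replicate 2 of high-dose Sagunja-tang (-0.26, edgeR adjusted p = 0.142).

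Targets of the aryl hydrocarbon receptor, a sensor of planar aromatic compounds that shares some targets with NRF2, gave 2 calls of 9. Both calls were higher with Samul-tang, against 3.55% of all genes called higher. ALDH3A1, which oxidises aromatic and lipid aldehydes, read 69.7 and 72 CPM with Samul-tang, 53.5 and 48.3 with Sagunja-tang and 27.4, 27.2 and 28.4 in vehicle (0.48 ± 0.06), and the other call was UGT1A6. CYP1A1, the most used marker of this receptor, read 1.27 and 1.07 CPM with Samul-tang and 1.32 and 1.36 with Sagunja-tang (-0.20 ± 0.57, edgeR adjusted p = 0.875). TIPARP and AHRR, further targets, differed by 0.08 ± 0.07 and -0.04 ± 0.11 and were not called.

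Outside the detoxification lists, SLC38A4 (ENSG00000139209, chromosome 12, 46764761 to 46832408), which carries small neutral amino acids into cells, had the largest difference among the 12 leading higher genes. It read 14.3 and 14.8 CPM with Samul-tang, 4.9 and 5.03 with Sagunja-tang and 2.9, 2.47 and 3.34 in vehicle. The difference was 1.55 ± 0.14 (edgeR adjusted p = 2.86e-08), or 2.93-fold, and it was called in all 15 alternative analyses, with values from 1.52 to 1.58. Of 20 amino acid transporters 7 were called higher and 0 lower (against 3.55% and 1.92% of all genes), and 3 without replicate 2 of high-dose Sagunja-tang (against 0.356% higher): SLC38A4, SLC7A11 and the glutamate transporter SLC1A1 (0.19 ± 0.04). SLC7A5, SLC7A1 and SLC38A1, which are also targets of amino acid shortage or growth signals, were among the 4 that lost the call.

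Genes of lipid handling are spread over several lists, and the calls went both ways. The shares to set beside them are 3.55% of all genes called higher and 1.92% called lower with all libraries. ACSL5, which activates long-chain fatty acids, read 326 and 345 CPM against 265 and 277 with Sagunja-tang, with vehicle at 278, 272 and 264 (0.31 ± 0.04). GPAT3, an acyltransferase that starts triglyceride synthesis, read 31.9 and 32.3 against 22.3 and 22.1 CPM (0.53 ± 0.07). FABP1, a fatty acid carrier of enterocytes, read 4.57 and 4.88 against 3.51 and 2.75 CPM (0.60 ± 0.15). It was called in 9 of the 15 alternative analyses, with values from 0.43 to 0.79. For ACSL5 the Sagunja-tang libraries overlapped vehicle, while for FABP1 both formulas lay above vehicle at 1.4, 1.47 and 1.7 CPM. In the list of PPAR targets and fatty acid oxidation, 5 of 20 were called higher and 0 lower, and 3, ACSL5 and FABP1 among them, without replicate 2 of high-dose Sagunja-tang. PDK4 (0.44 ± 0.09) and CPT1A (0.28 ± 0.05) were the calls lost without it, at differences of 0.40 and 0.27 (edgeR adjusted p = 0.145 and 0.0753). The list median was 0.05 with and 0.07 without that library. In the fatty acid synthesis list 4 of 13 were called higher and 1 lower, and 1 higher without that library, with medians of 0.07 and 0.01. Sterol synthesis and uptake had 0 called higher and 4 lower of 25.

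NDRG1, a gene induced by low oxygen and by iron removal, read 27 and 22.7 CPM with Samul-tang, 13.7 and 15.6 with Sagunja-tang and 15.8, 17.1 and 18.4 in vehicle (0.76 ± 0.11). Both Samul-tang libraries were above vehicle and both Sagunja-tang libraries below it. Hypoxia response genes were called higher in 7 of 20 (against 3.55% of all genes) and lower in 1 (against 1.92%), CA9 (-0.29). Without replicate 2 of high-dose Sagunja-tang NDRG1 was the 1 call, and with the length trend removed 4 were called higher. PDK1, VEGFA and KDM3A, at 0.38 ± 0.07, 0.29 ± 0.05 and 0.27 ± 0.06, have exon lengths of 14883, 14431 and 13423 bases. With the length trend removed they differed by 0.24, 0.15 and 0.14, and PDK1 was called (edgeR adjusted p = 0.0303, 0.0565 and 0.154). LDHA, which turns pyruvate into lactate, differed by 0.19 ± 0.04 and was the 1 glycolysis gene of 20 called without that library, and 4 were called with it. PLOD2, a collagen-modifying hydroxylase, differed by 0.30 ± 0.05.

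Only 6 genes were called lower with Samul-tang with and without replicate 2 of high-dose Sagunja-tang. RARRES1 (ENSG00000118849, chromosome 3, 158696892 to 158732696), first described as a retinoic acid receptor responder, read 6.64 and 7.06 CPM with Samul-tang, 10.6 and 10.2 with Sagunja-tang and 9.13, 8.04 and 9.48 in vehicle. Samul-tang thus lay below and Sagunja-tang above every vehicle library, and the formulas differed by -0.60 ± 0.08 (edgeR adjusted p = 2.22e-05). DHRS3 (ENSG00000162496, chromosome 1, 12567910 to 12617731), which reduces retinal to retinol, read 25.7 and 27.8 CPM with Samul-tang, 38.3 and 35.1 with Sagunja-tang and 27.6, 28.6 and 27.1 in vehicle (-0.45 ± 0.06). Here Samul-tang overlapped vehicle. KRT13, a keratin gene, read 19.4 and 17.7 against 27.3 and 23.3 CPM (-0.45 ± 0.07), with vehicle between them at 21.8, 21.1 and 22.8. PTPRO, a receptor-type tyrosine phosphatase, read 14.2 and 14.2 against 18.8 and 19.1 CPM (-0.42 ± 0.07). ASF1B, a histone chaperone of dividing cells, and CRIP2, a LIM-domain protein gene, differed by -0.28 ± 0.04 and -0.27 ± 0.05. In the list of 13 genes of retinoid handling 2 were called lower (against 1.92% of all genes) and 0 higher. The 2 were DHRS3 and the retinol transporter STRA6 (-0.44 ± 0.11). The STRA6 call was lost without replicate 2 of high-dose Sagunja-tang (edgeR adjusted p = 0.204), and the list median was -0.09 with and -0.01 without it.

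**Figure D4:**
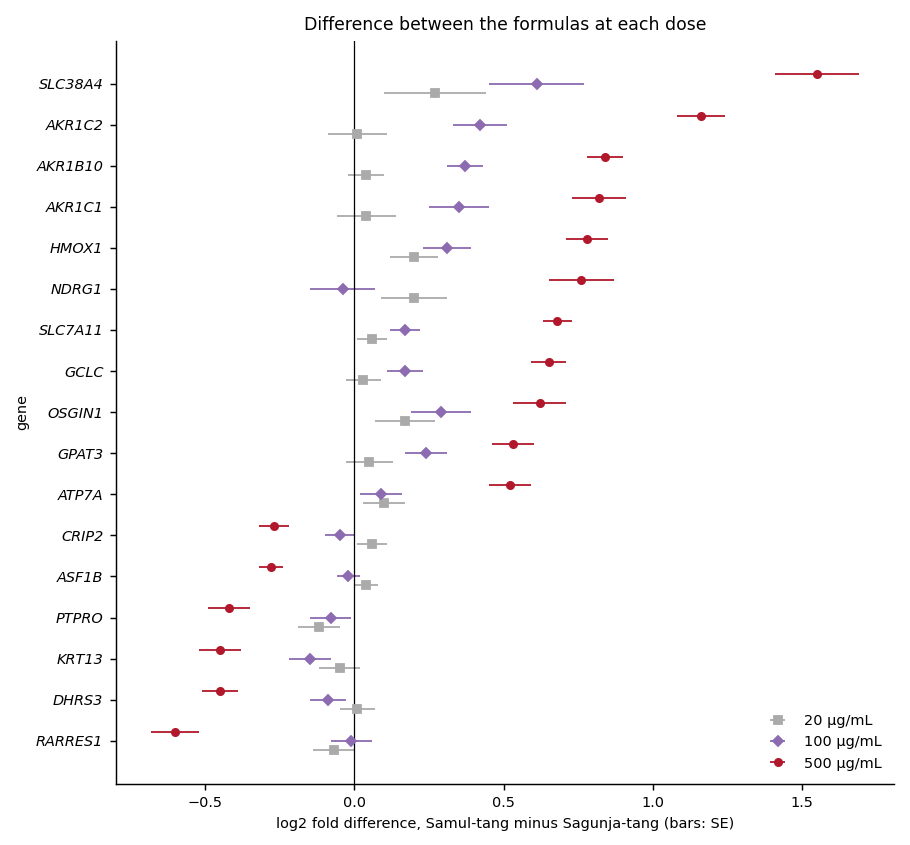
Log2 fold difference of Samul-tang minus Sagunja-tang ± SE (x axis) at 20, 100 and 500 µg/mL for 11 of the 12 leading higher and the 6 lower genes (y axis). At 500 µg/mL the values run from -0.60 at RARRES1 to 1.55 at SLC38A4, at 100 µg/mL from -0.15 to 0.61 and at 20 µg/mL from -0.12 to 0.27.

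Several lists of shorter genes had medians below 0 that shrank without replicate 2 of high-dose Sagunja-tang. Cytosolic ribosomal protein genes were called lower in 4 of 35 (against 1.92% of all genes), with a median of -0.18, and in 0 of 35 with a median of -0.06 without it. Genes of nuclear-encoded oxidative phosphorylation went from 3 of 30 and -0.17 to 0 and -0.06. The S100 family, small calcium-binding proteins, went from 2 of 11 and -0.34 to 0 and -0.10, and the proteasome list, with 0 calls in either case, from -0.14 to 0.02. With the length trend removed instead, these lists had medians of -0.14, -0.19, -0.20 and -0.10, in the same order. Then 4, 2, 0 and 0 of their genes were called lower, against 1.55% of all genes. Calls lower were also lost without replicate 2 of high-dose Sagunja-tang in lists whose medians did not all shrink. These were sterol synthesis and uptake (4 of 25, median -0.11 with and -0.06 without, among them EBP at -0.35 ± 0.07 and FDPS at -0.26 ± 0.07), DNA replication (3 of 34, -0.05 and 0.00, GINS2 at -0.27 ± 0.06), mitosis (3 of 32, -0.01 and -0.01), interferon response (2 of 24, -0.14 and -0.13, ISG15 at -0.46 ± 0.11) and metallothioneins and zinc export (2 of 9, -0.02 and -0.13, MT2A at -0.57 ± 0.13). Without that library each of these 5 lists had 0 calls. Calls higher went from 6 to 0 of 26 in ribosome biogenesis (UTP20 at 0.34 ± 0.07) and from 2 to 0 of 19 heat shock genes, while their medians went from 0.06 to 0.09 and from 0.05 to 0.08. Of these genes 16 and 11 lay above 0 with all libraries, and 25 and 15 without it. With the length trend removed, calls lower were 5 in sterol synthesis and uptake, 3 in DNA replication and 1 in mitosis. They were 2 in interferon response and 0 in metallothioneins and zinc export. Calls higher were then 4 in ribosome biogenesis and 1 among heat shock genes, against 1.38% of all genes.

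Lists on which the formulas gave 0 calls with all libraries included the 8 membrane mucins, 18 p53 targets, 13 YAP targets, 20 splicing regulators and the 13 mitochondrially encoded genes. With 5.47% of all genes called, lists of this size can hold 0 calls without standing apart from other genes. MUC17, a membrane mucin gene, read 8.22 and 7.04 CPM with Samul-tang and 3.19 and 7.24 with Sagunja-tang, so that the 2 Sagunja-tang libraries differed more from each other than the formulas did (0.51 ± 0.24, edgeR adjusted p = 0.197). MUC12 differed by 0.32 ± 0.19 and ABCG1, a sterol exporter, by 0.17 ± 0.12, and neither was called (edgeR adjusted p = 0.334 and 0.416). Mitochondrially encoded genes had a median difference of 0.20, or 0.09 without replicate 2 of high-dose Sagunja-tang, in which they took the smallest share of counts of the 4 libraries, 4.65% against 5.71 to 5.98%. In the vehicle libraries their share was 7.43, 8.48 and 9.8%.

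**Figure D5:**
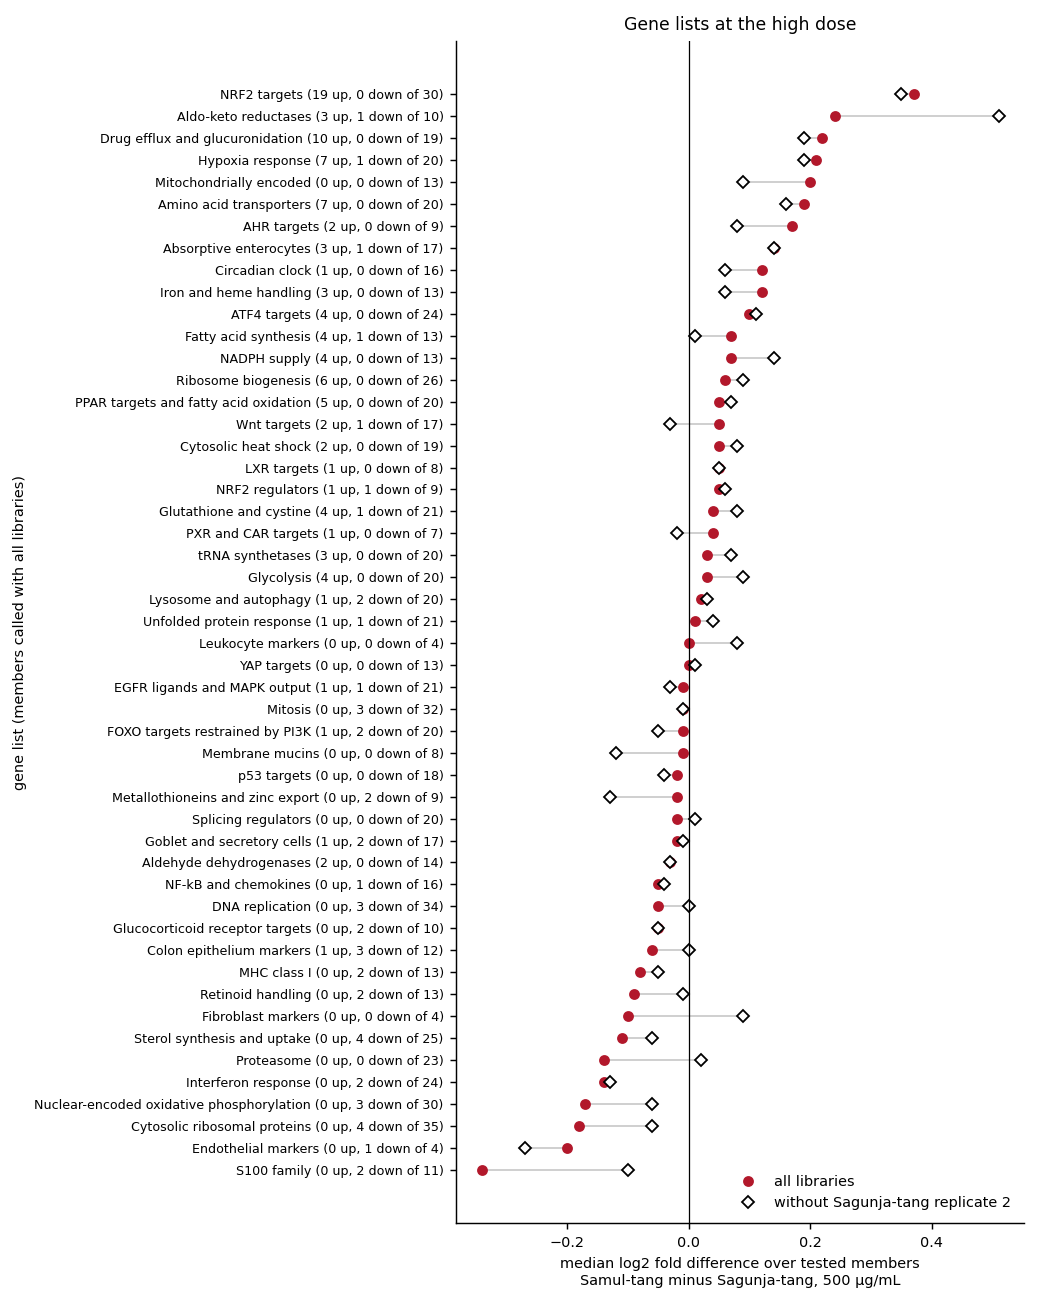
Median log2 fold difference of Samul-tang minus Sagunja-tang at 500 µg/mL (x axis) over the tested members of each gene list (y axis, with the number called higher and lower), with all libraries (circles) and without Sagunja-tang replicate 2 (diamonds). NRF2 targets lie at 0.37 and 0.35, while ribosomal protein genes move from -0.18 to -0.06.

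At the lower doses hardly any gene separated the formulas. At 100 µg/mL 1 gene was called (0.00574% of genes), AKR1B10, at 139 and 140 CPM with Samul-tang and 107 and 108 with Sagunja-tang (0.37 ± 0.06, edgeR adjusted p = 0.0298), and 618 had an unadjusted p under 0.05. Without any 1 of the 4 libraries at that dose 0 were called, and DESeq2 called 3 with all of them (0.0172%). At 20 µg/mL edgeR called 0 (0%) and DESeq2 called 0, and 395 genes had an unadjusted p under 0.05 in edgeR. The 57 genes higher at the high dose had median differences of 0.41, 0.13 and 0.03 at the high, medium and low dose, and 51 and 45 of them were above 0 at the medium and low dose. The 6 lower genes had medians of -0.43, -0.06 and -0.02, and 6 and 3 were below 0. Both sets were picked by their high-dose difference, which widens their medians at that dose but not at the others. Among all 17432 genes, 8824 were above 0 at the medium dose and 8578 at the low dose. The list of NRF2 targets had medians of 0.37, 0.17 and 0.02. These doses use libraries other than the 4 compared, and replicate 2 of high-dose Sagunja-tang is not among them.

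The change of the difference with dose was tested as an interaction. In 24 genes (0.138%) the difference at 500 µg/mL departed from that at 20 µg/mL, upward in 20 (0.115%) and downward in 4 (0.0229%), and 9 of the 24 were on the list of NRF2 targets. Of the 24, 23 were among the 63 genes above, and JAG1, a Notch ligand gene, was the other. The interaction uses the same high-dose libraries that picked the 63 genes, so that this overlap is largely built in. DESeq2 called 45 (0.258%). Leaving out any 1 of the 8 libraries gave 8 to 14 genes, except 2004 without replicate 3 of high-dose Sagunja-tang. AKR1C2 and SLC38A4 gave the widest interactions, 1.15 ± 0.13 and 1.28 ± 0.22. AKR1C2 read 11 and 10.6 CPM with Samul-tang and 10.9 and 10.5 with Sagunja-tang at 20 µg/mL, close to the lowest vehicle library, and separated at 100 µg/mL at 15.3 and 14 against 11 and 11.

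Palmul-tang at 500 µg/mL, which combines the herbs of both formulas, gives a point of reference for levels and was not tested against them. Its sample names begin with another code than theirs, so that sample set and treatment cannot be told apart here. AKR1B10 stood at 283, 278 and 261 CPM with Palmul-tang, between Sagunja-tang (200 and 177) and Samul-tang (335 and 342). AKR1C2 (37.8, 36.7 and 36.3 CPM), SLC7A11 (234, 232 and 232), GCLC (154, 149 and 149), HMOX1 (22.4, 23.4 and 22.8) and SLC38A4 (8.98, 10.3 and 10.5) likewise lay between the formulas without overlap. NDRG1 did not, with a mean of 13.2 CPM beside 13.7 and 15.6 with Sagunja-tang. DHRS3 (27.9, 29.7 and 30.2 CPM) and RARRES1 (7.64, 7.76 and 7.78) lay between the formulas, nearer to Samul-tang. The genes of this paragraph are shown because the formulas differed in them, which favours a level in between. The share of all genes with Palmul-tang between the formulas was not computed.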

How the data were processed

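RNA of 33 HT29 libraries was sequenced. The submitters' processing notes name FastQC 0.11.9 and Trim Galore 0.6.5 for read quality, STAR 2.7.3a and hg38 for alignment, and RSEM 1.3.3 for quantification. The deposited values are expected counts per gene, which split reads shared by similar genes by estimate. The kit keeps strand, per the labels' protocols, but whether counting used it is not given in the sources used here. Of the values 9.45% were not whole and were rounded, and 240 of 273 columns were not used.

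Genes passing filterByExpr (minimum count 10), 17432 of 60675, were tested with edgeR 4.0.16 (R 4.3.3): TMM normalization, 1 coefficient for each of 13 groups over all 33 libraries, quasi-likelihood F tests with 20 residual degrees of freedom, and Benjamini-Hochberg adjustment over all genes. CPM are TMM-normalised. The SE is the absolute log2 difference divided by the square root of F. Where leaving out a library left 1 in a group, its spread was taken from the other groups. Gene positions and exon lengths come from GENCODE 29. Alternatives used DESeq2 1.42.0, RLE size factors, no filter, fewer groups, a replicate block, removed length or GC trends, and left-out libraries. The tests were also run on simulated counts with known changes.

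Named genes were the 12 largest rises and falls (6 falls passed) called with and without replicate 2 of high-dose Sagunja-tang, at average log2 CPM 2 or more and no overlap between groups, plus up to 4 called members per list, and always the aldo-keto reductases, NQO1, HMOX1, SLC7A11, GCLM, CYP1A1, MUC17, MUC12, ABCG1 and SLC38A4. The remaining NRF2 targets, NFE2L2, KEAP1, UGT1A10, ABCC1, SLC1A1, PLOD2, CA9, TIPARP, AHRR and the genes of the closing section were added after their values were seen. The members and the 50 gene lists were chosen with earlier results of these data known. Some genes are counted in these totals but not reported here by name.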

Additional observations from a re-analysis of the deposited data

Results flagged for a closer look

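The difference between Samul-tang and Sagunja-tang was larger at 500 than at 20 µg/mL in 24 genes by a test of the change itself (edgeR interaction, adjusted p under 0.05, values as log2 differences at high minus low dose). Among NRF2 targets these were AKR1C2 (1.15), AKR1B10 (0.80), AKR1C1 (0.78), GCLC (0.63), SLC7A11 (0.61), HMOX1 (0.58), GCLM (0.39), ABCC3 (0.39) and EPHX1 (0.39). Other detoxification genes were UGT1A1 (0.48), ALDH3A1 (0.45) and UGDH (0.44). Lipid and transport genes included SLC38A4 (1.28), GPAT3 (0.49), ACSL5 (0.32) and SLC37A1 (0.32). Further higher genes were JAG1 (0.52), the AP-1 factor FOSL2 (0.33) and STT3A (0.31), a subunit of the oligosaccharyltransferase. Genes with a more negative difference at the high dose were RARRES1 (-0.52), DHRS3 (-0.47), CRIP2 (-0.33) and ASF1B (-0.32). Leaving out 1 library at a time gave 8 to 2004 such genes, the latter without replicate 3 of high-dose Sagunja-tang and 13 without its replicate 2.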

How the results depend on the processing

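The 953 genes called at the high dose became 1104 with DESeq2, 883 with RLE size factors, 1746 without a filter, 44 in the fit of 12 libraries, 2 in the fit of the groups compared, 511 with the length trend removed, 566 with the length and GC trends removed, and 64 with the length trend removed and replicate 2 of high-dose Sagunja-tang left out. The last 2 were chosen after seeing the data. Leaving out 1 library gave 71 (that replicate) to 4085 (its partner), and 138 and 167 without replicates 2 and 3 of Samul-tang. The replicate block gave 1473 over all libraries, 107 in 12 libraries and 954 with the length trend removed. No label says what the replicate numbers share. Over 15 pairs of groups the correlation of the replicate 2 minus 3 differences ran from -0.028 to 0.391, was over 0.1 in 7, and was 0.174 between the groups compared. Since not every pair passed 0.1, the numbers were not taken as a pairing. At the medium dose the 1 call became 3 with DESeq2, 100 without a filter, 7 with only the groups compared, 0 in 12 libraries with or without the replicate block, and 0 without any 1 library. At the low dose 0 became 66 without a filter and 5 with only the groups compared. The 24 interactions became 45 with DESeq2, 380 without a filter, 0 with only the groups compared, 5 in 12 libraries, 5 with the replicate block there, 40 with the block over all libraries, 38 with block and length trend removed, 14 with the length trend removed and replicate 2 of high-dose Sagunja-tang left out, and 8 to 2004 without 1 library. Where no filter or fewer libraries made the difference, the genes or samples entered differ; otherwise the cause was not tested. Differences that changed sign included those of TXN and PRDX1 (-0.18 and -0.05 to 0.05 and 0.14 without replicate 2 of high-dose Sagunja-tang), AKR1B1 (-0.04 to 0.61 without 1 library), AKR1E2 (-0.25 to 0.08 without 1 library, with 0.08 and 0.01 above 0, 0.09 with length trend removed and that replicate 2 left out), the last 2 not called and at low counts, and ASPH (-0.03 with length, block and length, or length and GC trends removed). With 2 libraries a group, genes of low counts such as NDUFA4L2, ABCC2 and FABP1 rest on few reads.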

Other observations

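Of the 63 genes called with and without replicate 2 of high-dose Sagunja-tang, some belong to none of the lists described, and they were chosen here after their values were seen. ATP7A, the copper-exporting ATPase, read 45.9 and 43 CPM with Samul-tang, 26.9 and 34.8 with Sagunja-tang and 34.9, 35.9 and 34.3 in vehicle (0.52 ± 0.07). THBS1, the matrix protein thrombospondin 1, read 44.9 and 45.6 against 32.2 and 34.5 CPM, with vehicle at 33.7, 31.9 and 30.3 (0.44 ± 0.07). CREB3L2, a membrane-bound factor of the secretory pathway, read 22.9 and 25.1 against 15.7 and 18.3 CPM (0.49 ± 0.08), and STT3A 417 and 398 against 335 and 347 (0.26 ± 0.03). LTBP1, which binds latent TGF-beta, differed by 0.89 ± 0.16 at 3.53 and 2.76 against 1.68 and 1.7 CPM.

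PTGR1, a reductase of reactive aldehydes and prostaglandins, differed by 0.23 ± 0.06. It was called in 9 of the 15 alternative analyses, with values from 0.12 to 0.35. CYP4F3, a fatty acid and leukotriene hydroxylase, differed by 0.73 ± 0.16 at 3.79 and 4.07 against 2.64 and 2.12 CPM. NDUFA4L2, a mitochondrial gene induced by low oxygen, read 1.14 and 1.28 CPM with Samul-tang and 0.29 and 0.341 with Sagunja-tang, beside 0.446, 0.488 and 0.401 in vehicle (1.93 ± 0.32). Like NDRG1 it stood above vehicle with Samul-tang and below it with Sagunja-tang. At under 1 CPM with Sagunja-tang and in vehicle, the order of those groups rests on few reads.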
